A study of Homo sapiens with 19 samples.

Results

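The lysosome and V-ATPase genes examined here are 46 genes chosen by name, of 44717 gene identifiers listed for any sample. They are 18 soluble lysosomal hydrolases and their activators, 6 membrane and lipid transport proteins of the lysosome, 6 genes of autophagy and nutrient sensing at its surface, and 16 subunits of the V-ATPase, 8 assigned to the membrane sector V0 (with the accessory subunit ATP6AP1) and 8 to the cytoplasmic sector V1. Each symbol matched 1 Ensembl identifier, and all 46 were listed in every sample. They were taken by name from a list drawn up with earlier results of these data known.

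Lysosomes break down proteins, sugars and lipids with acid hydrolases, and the V-ATPase pumps the protons that keep their lumen acidic. Many of these genes carry a short palindromic E-box, the CLEAR element, which is bound by the MiT/TFE transcription factors TFEB, TFE3, TFEC and MITF. Melanosomes, the pigment organelles of melanocytes, are lysosome-related and share part of this machinery, and MITF is the member of the family that governs the melanocyte lineage.

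RNA-seq was available from 19 samples in 7 groups. 501Mel, a human melanoma line, was infected with lentiviral vectors expressing shBRG1 or the scramble shSCR1 (3 replicates each), or with vectors expressing shMITF or the scramble shSCR2 (2 replicates each). Hermes 3A, a line of immortalised untransformed human melanocytes, was infected with shSCR, shBRG1 or shMITF (3 replicates each). BRG1, encoded by SMARCA4, is the catalytic subunit of SWI/SNF chromatin remodelling complexes. Each line is a single line with 1 shRNA label per target, and nothing in the labels states that replicates came from separate infections, so p-values measure only the spread between these samples.

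The reads assigned to genes numbered 29158502 to 78857900 per sample. The coefficient of variation between replicates common to all genes was 4.58% to 5.88% in 501Mel shSCR1, 501Mel shBRG1, Hermes 3A shSCR and Hermes 3A shBRG1, but 16.5% in 501Mel shSCR2, 17.3% in 501Mel shMITF and 28.6% in Hermes 3A shMITF, so that the shMITF comparisons can show only larger differences. All 7 melanocytic markers were at 10 or more CPM (counts scaled to a common library size) per kilobase of exon, written CPM per kb, in every sample of both 501Mel scramble groups, and in Hermes 3A shSCR 6 of the 7 were, with DCT at 2.71 to 3.11. Of the markers of other cell types that are listed for every sample, the 5 of fibroblasts summed to at most 20 CPM per kb, the 4 of macrophages to at most 1.32 and the 2 of endothelium to at most 0.163 in any sample. KRT10 was the 1 keratinocyte marker listed for every sample, at 12.6 to 30.1. Levels are given as CPM per kb, from all 19 samples normalised together by TMM, whereas log2 fold changes come from separate fits of each comparison in edgeR with Benjamini-Hochberg adjusted p over all genes tested.

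SMARCA4 stood at 11.3, 12.3 and 11.8 CPM per kb in 501Mel shSCR1 and at 2.37, 2.57 and 2.27 in 501Mel shBRG1. In Hermes 3A it stood at 15.5, 16.1 and 14.4 with shSCR and at 2.82, 2.93 and 3.01 with shBRG1. The groups did not overlap in either line, and the log2 fold changes were -2.36 ± 0.054 (SE, adjusted p = 3.7e-21) and -2.38 ± 0.048 (adjusted p = 1.6e-24). MITF stood at 146 and 165 CPM per kb in 501Mel shSCR2 and at 68.8 and 76.1 in 501Mel shMITF, a log2 fold change of -1.06 ± 0.14 (adjusted p = 0.00143). The shMITF samples were thus below their own control but close to 501Mel shSCR1, where MITF stood at 71.4, 84.1 and 84.8. In Hermes 3A, MITF stood at 141, 144 and 156 with shSCR and at 63.5, 100.2 and 75.8 with shMITF (log2 fold change -0.85 ± 0.19, adjusted p = 0.0194). shBRG1 also lowered MITF, by -1.55 in 501Mel and -0.43 in Hermes 3A on the log2 scale (adjusted p = 8.0e-16 and 1.3e-09).

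Hydrolases held the first places in level in 501Mel shSCR1 and Hermes 3A shSCR, although others, such as CTSK in 501Mel, were among the lowest of the 46 genes. PSAP, the precursor of the saposins that help hydrolases reach their lipids, ranked first in both lines, at 1035 ± 43.1 CPM per kb in 501Mel shSCR1 and 2161 ± 29.2 in Hermes 3A shSCR (SD, n = 3). It was followed in 501Mel shSCR1 by the cysteine cathepsins CTSB (692 ± 60.9) and CTSL (495 ± 36.7), which did not overlap with each other. In 501Mel shSCR2, where PSAP stood at 567 ± 29.9 (SD, n = 2), the order was another, with the carboxypeptidase CTSZ (213 ± 40.3) and the V1 subunit ATP6V1G1 (187 ± 10.3) ahead of CTSB (149 ± 6.75) and CTSL (144 ± 24). In Hermes 3A the next places were held by CTSK (837 ± 18.9), a collagen-degrading cathepsin best known from osteoclasts, and the aspartic protease CTSD (780.2 ± 53), whose samples overlapped. Among the V-ATPase subunits ATP6V1G1 was the most abundant in both lines, at 231 ± 2.46 CPM per kb with shSCR1 and 430.0 ± 10 with shSCR. The lowest were ATP6V1B1, a subunit known from kidney, and ATP6V0D2, known from osteoclasts, at 1.13 ± 0.059 and 0.056 ± 0.0281 in 501Mel shSCR1.

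Of the 46 genes, 35 were lower and 6 higher in 501Mel shSCR1 than in Hermes 3A shSCR (adjusted p under 0.05), with 12 lower and 1 higher past 2-fold. Of all 18731 genes tested, 40.2% were lower and 41.4% higher, and 18.2% were lower and 23.1% higher past 2-fold. The median log2 difference of the 46 genes was -0.56, against 0.04 over all genes tested. CTSK was lower by the widest margin, at 3.29, 2.21 and 2.61 CPM per kb in 501Mel shSCR1 against 838, 817 and 855 in Hermes 3A shSCR (log2 difference -8.28), and CTSB was the 1 gene higher past 2-fold in 501Mel (1.17). With library sizes in place of TMM the split was 29 lower and 12 higher, where 31.5% and 51.3% of all genes were. With 501Mel shSCR2 in place of shSCR1 it was 43 lower and 2 higher, where 36.9% and 36.8% of all genes were, and 28 were lower past 2-fold. Both lines differ in origin and in culture medium, which cannot be told apart here.

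**Figure D1:**
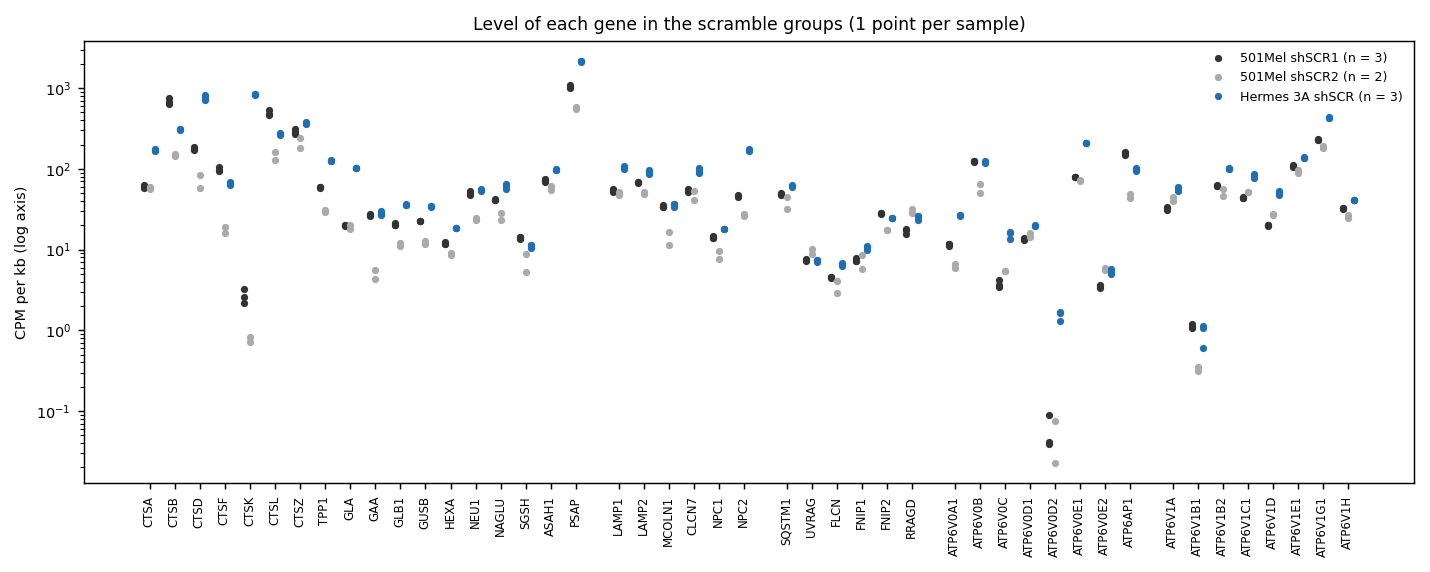
Level of each of the 46 genes (horizontal axis, grouped by role) in every sample of the 3 scramble groups, in CPM per kb on a log axis, 1 point per sample. Most genes lie lower in 501Mel than in Hermes 3A, CTSK differs most (2.7 against 837 on average with shSCR1 and shSCR), and CTSB, CTSF and GAA lie far lower in 501Mel shSCR2 than in shSCR1.

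BRG1 silencing in 501Mel cells lowered most of the lysosome and V-ATPase genes, by an amount that depended on the scramble control. Against shSCR1, 39 of the 46 genes fell and 5 rose (adjusted p under 0.05), where 39.1% of the 20514 genes tested fell and 41.2% rose. Past 2-fold, 26 fell and 1 rose, where 17.4% of all genes fell and 21.7% rose that far. The median log2 fold change of the 46 genes was -1.03, and that of all genes tested was 0.05. The summed level of the 46 genes went from between 19118 and 20594 CPM with shSCR1 to between 7886 and 8130.0 with shBRG1, but it was only 10011 and 10767 with the other scramble, shSCR2. In bulk RNA, fewer cells of a type and less RNA per cell cannot be told apart.

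An additional comparison of shBRG1 with shSCR2, chosen after the data were seen, gave 30 lower and 6 higher genes, where 37.1% and 42.7% of all genes were, and 9 lower and 3 higher past 2-fold. The median of the 46 genes was then -0.45, against 0.15 over all genes tested. Of the 39 genes that fell against shSCR1, 29 were also lower against shSCR2, and 8 of the 26 past 2-fold were lower past 2-fold there too, namely CTSL, GUSB, NAGLU, ASAH1, FNIP2, ATP6V1C1, ATP6V1G1 and ATP6V1H. CTSB and ATP6V1B1 were higher against shSCR2 (0.38 and 0.71, adjusted p = 4.6e-04 and 0.0096), and TPP1, GAA, NEU1, SGSH, LAMP1, MCOLN1, NPC1 and ATP6V0B did not pass. Of the genes that rose against shSCR1, CTSK, FLCN and ATP6V0D2 were also higher against shSCR2, and ATP6V0C and ATP6V0E2 did not pass. SMARCA4 fell against shSCR2 by 3.19 on the log2 scale. The values that follow are against shSCR1 unless shSCR2 is named.

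Of the hydrolases 17 of 18 fell, with 13 past 2-fold. Against shSCR2, 12 of 18 were lower at any size and 2 higher, with a median log2 fold change of -0.40. The hydrolases lower past 2-fold against both controls were CTSL, GUSB, NAGLU and ASAH1. The largest fall was that of CTSF, a cysteine cathepsin (ENSG00000174080, chr11:66563463-66568841, minus strand, GRCh38). It stood at 94, 107 and 98.1 CPM per kb with shSCR1 and at 10.3, 11.2 and 10.8 with shBRG1. The groups were far apart, with a log2 fold change of -3.28 ± 0.057 (adjusted p = 3.5e-23), whereas against shSCR2, at 16.2 and 18.8, it was -0.79. CTSL (ENSG00000135047, chr9:87725519-87731393, plus strand), a broad endopeptidase, stood at 537, 481 and 467 with shSCR1 and at 75.9, 74.4 and 74.4 with shBRG1 (-2.79 ± 0.055, adjusted p = 2.7e-22, and -1.03 against shSCR2). CTSB stood at 760.4, 672 and 644 with shSCR1 and at 204, 206 and 204 with shBRG1 (-1.82 ± 0.058, adjusted p = 1.6e-18). The shSCR1 and shBRG1 groups did not overlap for either cathepsin, but CTSB with shSCR2, at 153 and 144, was below the shBRG1 samples.

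The enzymes of glycan and sphingolipid breakdown followed. NAGLU, which degrades heparan sulphate, fell by 2.33 on the log2 scale, GAA, the glycogen-degrading acid alpha-glucosidase, by 2.28, ASAH1, the acid ceramidase, by 2.21 and GUSB, the beta-glucuronidase, by 2.01. Against shSCR2 the log2 fold changes of NAGLU, ASAH1 and GUSB were -1.68, -1.91 and -1.14, while that of GAA was 0.16 and did not pass the test. ASAH1 stood at 68.6, 72.8 and 74.6 CPM per kb with shSCR1 and at 16.5, 15.7 and 16.5 with shBRG1. GLB1, the beta-galactosidase whose activity is read by the usual stain for senescence, fell by 1.06, but by only 0.25 against shSCR2 (adjusted p = 0.0129). CTSK rose, from 3.29, 2.21 and 2.61 to 4.5, 4.16 and 4.54 CPM per kb (0.64 ± 0.11, adjusted p = 1.2e-05), a level far under that in Hermes 3A.

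All 6 membrane and lipid genes fell, from LAMP1 (-0.19), an abundant glycoprotein of the lysosomal membrane, to MCOLN1 (-1.50), the calcium channel mucolipin 1 (ENSG00000090674, chr19:7522626-7534009, plus strand). MCOLN1 stood at 33.6, 35.3 and 33.8 CPM per kb with shSCR1 and at 11.7, 13.9 and 12.3 with shBRG1, and shSCR2, at 11.5 and 16.6, overlapped with the latter. NPC1, the membrane protein that exports cholesterol from lysosomes, stood at 14.8, 13.8 and 13.8 with shSCR1 and at 9.24, 8.96 and 9.3 with shBRG1 (-0.69 ± 0.047, adjusted p = 2.3e-12), and at 9.66 and 7.61 with shSCR2 (0.01, adjusted p = 0.909). Its soluble partner NPC2 fell by 1.42.

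The 6 genes of autophagy and nutrient sensing were divided. FNIP2, a partner of folliculin in the control of Rag GTPases (ENSG00000052795, chr4:158769138-158908049, plus strand), stood at 27.5, 28.1 and 28.4 CPM per kb with shSCR1 and at 4.38, 4.01 and 4.69 with shBRG1 (-2.75 ± 0.055, adjusted p = 3.5e-22, and -2.10 against shSCR2). Its paralogue FNIP1 fell by only 0.48, folliculin itself (FLCN) rose by 0.72, and UVRAG fell by 0.95. Only 2 of the 46 genes did not pass the test against shSCR1. They were SQSTM1, the autophagy receptor p62 (0.06, adjusted p = 0.241), and RRAGD, a Rag GTPase (0.09, adjusted p = 0.146). Against shSCR2 SQSTM1 was higher (0.40, adjusted p = 0.0219) and RRAGD lower (-0.76, adjusted p = 1.5e-05).

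Of the V-ATPase, all 8 subunits of V1 and 5 of 8 of V0 fell. ATP6AP1, the accessory subunit needed for assembly, fell by 2.73, ATP6V1H, a regulatory subunit, by 2.22, ATP6V1G1 by 2.03 and ATP6V1C1, which bridges both sectors, by 2.01. Against shSCR2 these 4 had -0.97, -1.89, -1.74 and -2.25. ATP6V1C1 stood at 43.7, 43.9 and 44.9 CPM per kb with shSCR1 and at 11.3, 11.4 and 11.8 with shBRG1. The catalytic subunit ATP6V1A (-0.21) and ATP6V1D of the central stalk (-0.24) fell least against shSCR1. Against shSCR2 they had -0.61 and -0.70, larger falls than those of ATP6V0E1 (-0.22) and ATP6V0A1 (-0.26). The 3 subunits that rose were low in level. ATP6V0E2 went from 3.34, 3.56 and 3.68 to 6.59, 7.28 and 6.98 CPM per kb (0.92 ± 0.058, adjusted p = 6.6e-13). Against shSCR2, at 5.62 and 6, it did not pass the test (0.18, adjusted p = 0.074), nor did ATP6V0C (0.15, adjusted p = 0.255). ATP6V0D2 went from 0.0408, 0.0884 and 0.0389 to 0.203, 0.161 and 0.171 (1.53 ± 0.34, adjusted p = 2.7e-04), on a mean of 19 counts per sample. ATP6V0C, the proteolipid of the rotor ring, rose by 0.70, but 72.1% of its exon bases are shared with other annotated genes on the same strand, and 4 pseudogenes are named after it.

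Other values moved with the knockdown. The summed level of the 7 melanocytic markers went from between 7531 and 8059 CPM per kb with shSCR1 to between 791 and 865 with shBRG1, and the share of counts on mitochondrial genes from between 6.81% and 7.61% to between 10.4% and 11.4%. Their part in the result was not tested. With library sizes in place of TMM, which moved the median of all genes from 0.05 to 0.40, 33 of the 46 genes fell and 10 rose, where 28.5% and 55.1% of all genes did, and LAMP1, ATP6V1A, ATP6V1D and ATP6V0E1 turned positive. With both 501Mel scramble groups pooled as the control, 28 fell and 3 rose, where 24.3% and 27.1% of all genes did.

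**Figure D2:**
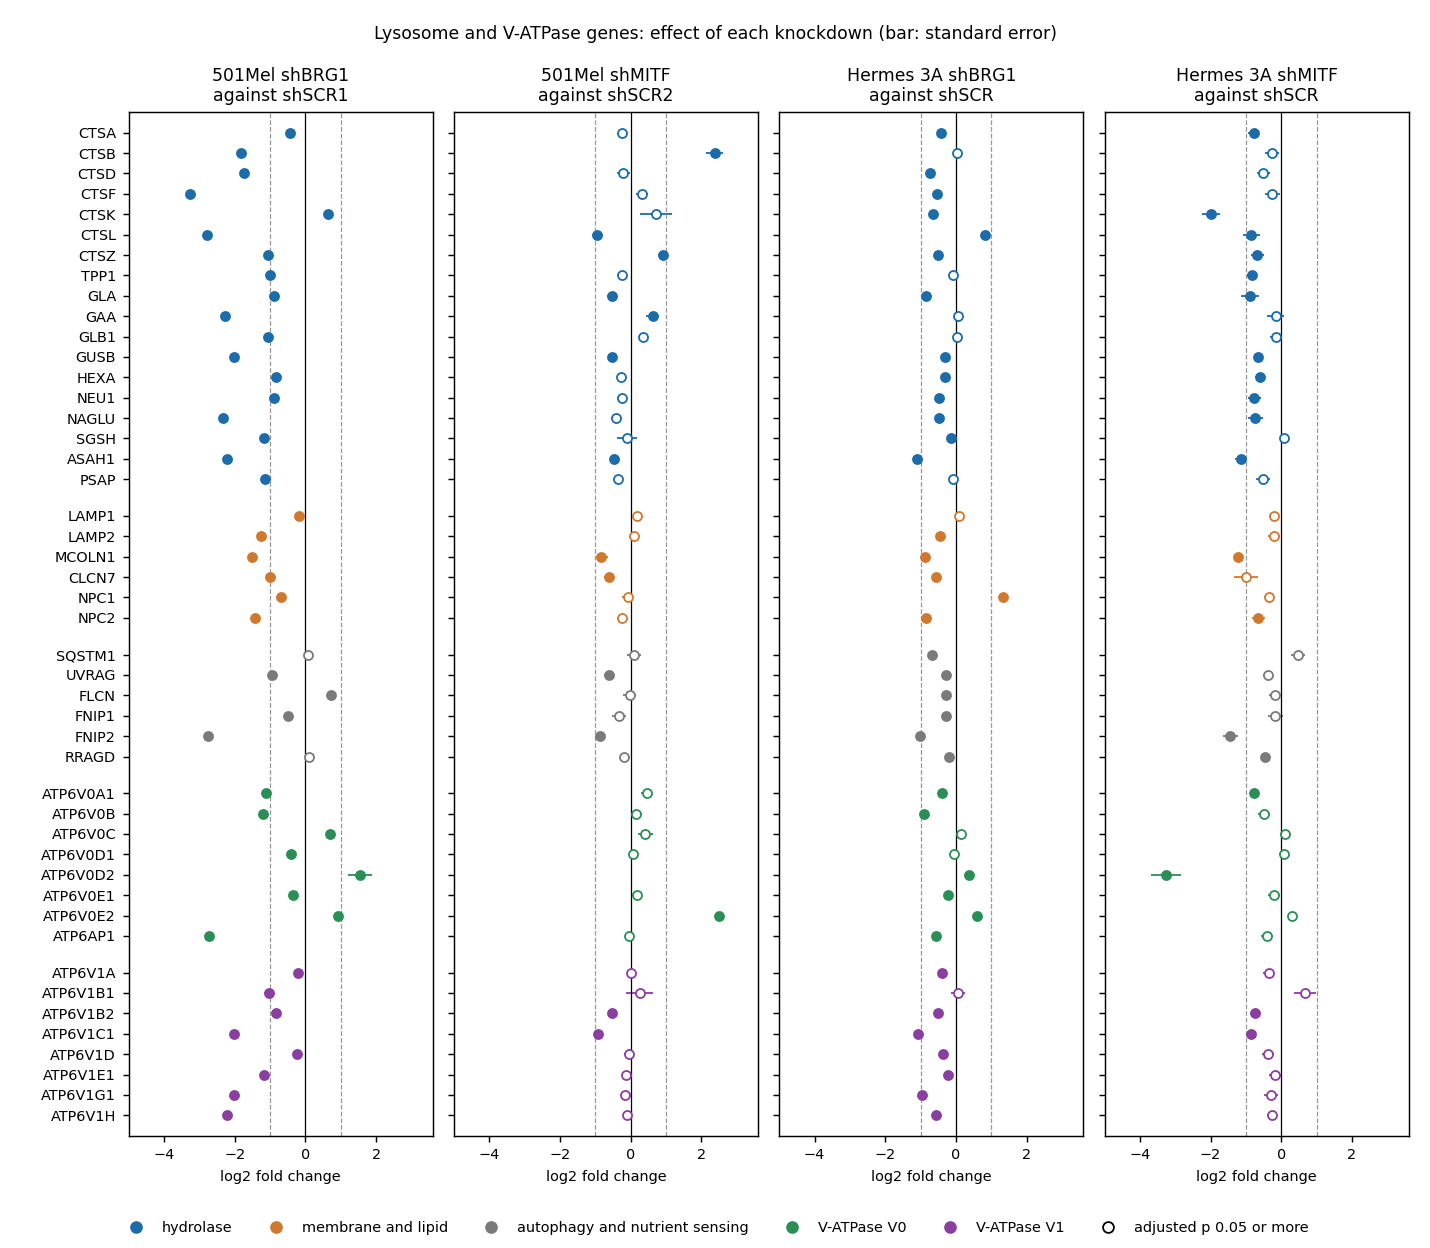
Log2 fold change (horizontal axis, bar for the standard error) of each of the 46 genes in the 4 knockdown comparisons, coloured by role; open points had adjusted p of 0.05 or more, dashed lines mark 2-fold. In 501Mel shBRG1 against shSCR1 39 genes fell and 5 rose, while in Hermes 3A shMITF 19 fell and none rose; ATP6V0D2 was not tested in 501Mel shMITF.

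The promoters bear on these genes because the CLEAR element is the site by which MiT/TFE factors are known to act on them. RefSeq windows of 300 bases on GRCh38.p14, 250 before the transcription start and 50 from it on, were found for 30 of the 46 genes. The CLEAR palindrome GTCACGTGAC was in 3 of the 30 windows (ATP6V1G1, GAA and MCOLN1), and in 0.381% of all 27305 windows. The E-box CACGTG, which lies within the palindrome, was in 13 of the 30 and in 7.43% of all windows. TCACGTG, which contains that E-box, was in the same 13 windows and in 3.82% of all. The M-box TCATGTG, searched like the others on both strands, was in 2 of the 30 (CTSA and TPP1) and in 2.99% of all. The 46 genes were chosen as CLEAR-type targets of MiT/TFE factors. Their shares of the palindrome and its E-box above those of all windows are therefore no result about them.

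The 250 bases before the start are shown for the 3 genes with the palindrome, and for CTSF, which has CACGTG without the palindrome and fell most in 501Mel shBRG1 against shSCR1. They are read 5′ to 3′ on the strand of the gene, with the palindrome in capitals for the first 3 and CACGTG in capitals for CTSF. The windows lie at chr17:80101331-80101580 (+ strand), chr9:114587519-114587768 (+ strand), chr19:7522374-7522623 (+ strand) and chr11:66568607-66568856 (- strand).
GAA: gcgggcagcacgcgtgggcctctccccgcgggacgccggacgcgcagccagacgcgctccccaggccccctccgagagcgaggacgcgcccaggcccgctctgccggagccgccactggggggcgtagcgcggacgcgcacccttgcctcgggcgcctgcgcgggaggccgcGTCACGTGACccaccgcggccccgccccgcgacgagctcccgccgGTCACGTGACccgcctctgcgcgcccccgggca
ATP6V1G1: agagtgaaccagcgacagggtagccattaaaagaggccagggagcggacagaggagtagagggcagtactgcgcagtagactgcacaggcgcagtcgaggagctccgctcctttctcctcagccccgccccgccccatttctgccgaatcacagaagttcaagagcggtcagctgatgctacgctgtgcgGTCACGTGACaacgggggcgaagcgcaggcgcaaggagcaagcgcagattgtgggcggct
MCOLN1: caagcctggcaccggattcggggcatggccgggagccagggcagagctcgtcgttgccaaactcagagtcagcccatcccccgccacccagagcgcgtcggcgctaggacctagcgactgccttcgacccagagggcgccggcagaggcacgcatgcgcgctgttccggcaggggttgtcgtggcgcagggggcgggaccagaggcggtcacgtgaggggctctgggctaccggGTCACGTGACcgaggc
CTSF: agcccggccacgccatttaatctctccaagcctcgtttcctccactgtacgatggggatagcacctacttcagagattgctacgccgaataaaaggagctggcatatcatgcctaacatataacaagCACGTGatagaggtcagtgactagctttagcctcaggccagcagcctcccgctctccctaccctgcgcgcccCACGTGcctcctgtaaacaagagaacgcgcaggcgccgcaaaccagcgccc

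GAA holds the palindrome 2 times, starting 78 and 33 bases before the start of transcription, ATP6V1G1 holds it 60 bases before and MCOLN1 16 bases before. The 2 genes with the next largest falls that hold no CACGTG before the start, CTSL and FNIP2, are shown for contrast, at chr9:87725869-87726118 (+ strand) and chr4:158768776-158769025 (+ strand).
CTSL: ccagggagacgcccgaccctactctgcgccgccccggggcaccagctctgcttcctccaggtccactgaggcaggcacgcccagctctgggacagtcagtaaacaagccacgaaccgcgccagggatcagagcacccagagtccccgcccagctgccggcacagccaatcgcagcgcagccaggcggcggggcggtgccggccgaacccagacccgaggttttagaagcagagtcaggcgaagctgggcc
FNIP2: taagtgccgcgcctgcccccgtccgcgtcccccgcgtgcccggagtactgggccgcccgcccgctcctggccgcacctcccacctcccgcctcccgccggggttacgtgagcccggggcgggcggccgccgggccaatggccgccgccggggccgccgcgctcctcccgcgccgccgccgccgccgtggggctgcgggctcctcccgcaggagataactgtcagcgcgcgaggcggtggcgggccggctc

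Genes fell both with and without the E-box in these windows. In 501Mel shBRG1 against shSCR1, 12 of the 13 genes with CACGTG fell, with a median log2 fold change of -1.0, and 14 of the 17 without it fell, with a median of -1.05. In Hermes 3A shMITF, 3 of 13 with it and 8 of 17 without it fell. A match in letters is a description and not evidence of binding.

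MITF silencing in 501Mel cells changed fewer of the genes. Of the 45 tested against shSCR2, 10 fell and 4 rose (adjusted p under 0.05), where 10.5% of the 17701 genes tested fell and 10.0% rose. Past 2-fold, 0 fell (also 0 at an unadjusted p under 0.05) and 2 rose, where 3.40% of all genes fell and 5.59% rose that far. The median log2 fold change was -0.11, against 0.01 over all genes tested. The genes that fell were the hydrolases CTSL, GLA, GUSB and ASAH1, the membrane proteins MCOLN1 and CLCN7, the chloride-proton exchanger, UVRAG and FNIP2, and the V1 subunits ATP6V1B2 and ATP6V1C1. All 10 also fell with shBRG1 against shSCR1, as did 39 of the 46 genes. The melanocytic markers, MITF included, summed to between 5205 and 5914 CPM per kb with shSCR2 and to between 2982 and 3086 with shMITF. Among them TYR alone was higher with shMITF, at 229 to 312 against 198 to 204. The part of these markers in the result was not tested.

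CTSL stood at 128 and 161 CPM per kb with shSCR2 and at 68.3 and 78.2 with shMITF (log2 fold change -0.94 ± 0.15, adjusted p = 0.00341). ATP6V1C1 stood at 51.1 and 52.3 with shSCR2 and at 25.9 and 27.1 with shMITF (-0.92 ± 0.12, adjusted p = 0.00144). FNIP2 stood at 17.6 and 17.7 with shSCR2 and at 10.1 and 8.83 with shMITF (-0.87 ± 0.12, adjusted p = 0.00186). In none of these 3 genes did the groups overlap. MCOLN1 stood at 11.5 and 16.6 against 7.34 and 8.01 (-0.83 ± 0.18, adjusted p = 0.0139), and ASAH1 at 54.7 and 60.9 against 38.7 and 42.6 (-0.47 ± 0.13, adjusted p = 0.0346). The groups did not overlap there either. Of the 10 calls, those of CTSL, FNIP2 and ATP6V1C1 held in every fit that left out 1 sample, and those of GLA, GUSB and ASAH1 were lost with another scaling or tool.

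The 4 genes that rose were ATP6V0E2, CTSB, CTSZ and GAA. ATP6V0E2, an isoform of the small V0 subunit e (ENSG00000171130, chr7:149872968-149891204, plus strand), stood at 5.62 and 6 CPM per kb with shSCR2 and at 30.3 and 33.8 with shMITF (2.50 ± 0.13, adjusted p = 6.9e-05). These 2 samples were the highest of all 19 for that gene, while its paralogue ATP6V0E1 had a log2 fold change of 0.17 that did not pass the test. CTSB stood at 153 and 144 with shSCR2 and at 587 and 902 with shMITF (2.37 ± 0.23, adjusted p = 7.1e-04). The level with shMITF was on the scale of that with shSCR1, 644 to 760.4. CTSZ, a carboxypeptidase of the cathepsin family, rose by 0.91 and GAA by 0.62.

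The values against shSCR2 therefore need those of the other scramble group beside them. Between shSCR2 and shSCR1, 31 of the 46 genes were lower and 8 higher, 11 of them lower past 2-fold, where 34.5% of the 19056 genes tested were lower and 35.3% higher, and 20.7% were lower and 12.3% higher past 2-fold. The largest differences were in CTSF (-2.49), GAA (-2.44) and CTSB (-2.21). The labels and methods do not say how both scramble preparations differ. An additional comparison of shMITF with shSCR1, chosen after the data were seen, gave 34 lower and 7 higher genes, where 32.3% and 33.1% of all genes were. In it MITF itself was close to its control level, as given above.

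All 10 genes that fell against shSCR2 were also lower against shSCR1, and ATP6V0E2 and CTSZ were higher against both. ATP6V0E2 had log2 fold changes of 2.50, 2.88 and 3.21 against shSCR2, both groups pooled and shSCR1. CTSB had 2.37, 0.68 and 0.13, with adjusted p of 7.1e-04, 0.6 and 0.549. GAA had 0.62, -1.27 and -1.85, so that its direction turned with the control. With both scramble groups pooled, only FNIP2 and ATP6V1C1 passed as lower (adjusted p = 0.0409 and 0.0318) and only ATP6V0E2 as higher (adjusted p = 0.00585), where 1.81% of all genes were lower and 2.34% higher. Without shSCR2 replicate 2 the count of genes that fell was 4, and without shMITF replicate 2 it was 6.

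**Figure D3:**
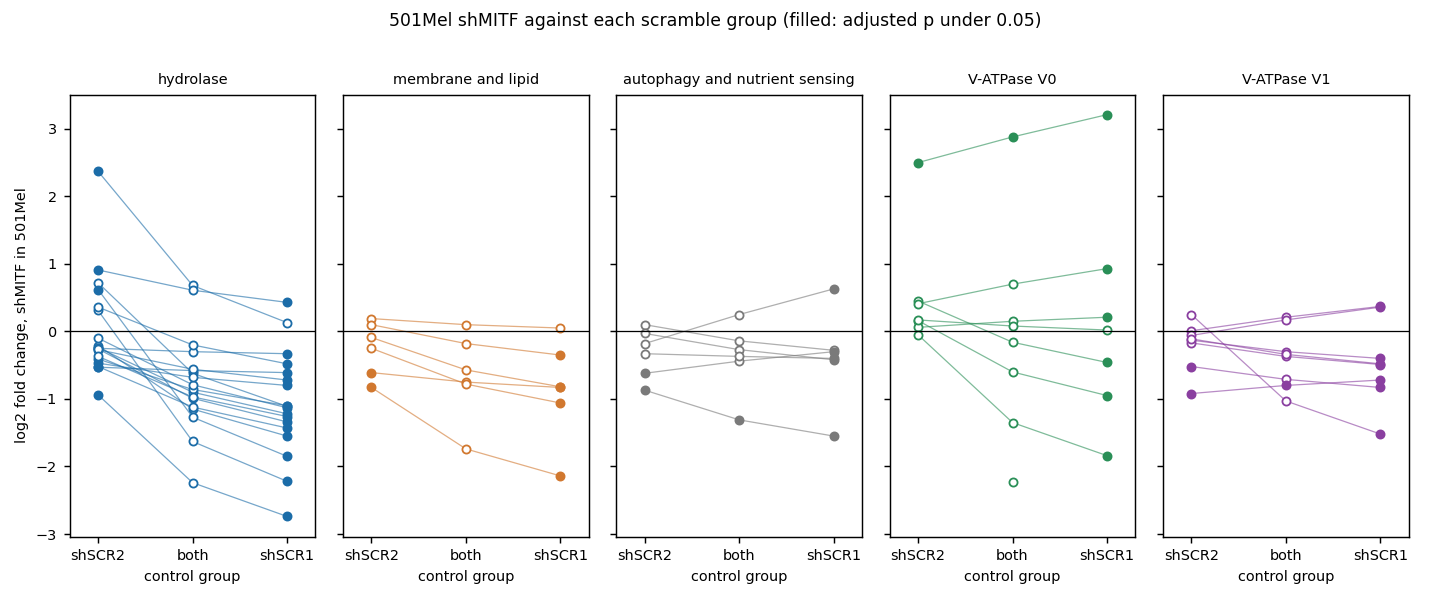
Log2 fold change of each gene with shMITF in 501Mel (vertical axis) against shSCR2, both scramble groups pooled, or shSCR1 (horizontal axis), 1 line per gene and 1 panel per role, filled where adjusted p was under 0.05. The hydrolases shift downwards from left to right, CTSB from 2.37 to 0.13, while ATP6V0E2 stays between 2.50 and 3.21 and ATP6V1C1 between -0.92 and -0.72.

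BRG1 silencing in Hermes 3A melanocytes also lowered most of the genes, but by less. Of the 46 genes 33 fell and 4 rose (adjusted p under 0.05), where 28.6% of the 17222 genes tested fell and 28.2% rose. Past 2-fold, 3 fell and 1 rose, where 3.47% of all genes fell and 5.78% rose that far. The median log2 fold change was -0.38, against 0.01 over all genes tested. The fall was seen in 12 of 18 hydrolases, 4 of 6 membrane and lipid genes, all 6 of autophagy and nutrient sensing, 4 of 8 subunits of V0 and 7 of 8 of V1.

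ASAH1 stood at 96.8, 96.2 and 101 CPM per kb with shSCR and at 44.5, 46.6 and 44.5 with shBRG1 (log2 fold change -1.10 ± 0.042, adjusted p = 1.3e-18). ATP6V1C1 stood at 81.9, 76.3 and 85.8 with shSCR and at 38.3, 39.4 and 37.9 with shBRG1 (-1.07 ± 0.042, adjusted p = 2.5e-18). FNIP2 stood at 24.4, 24.5 and 24.8 with shSCR and at 12, 12 and 12.1 with shBRG1 (-1.02 ± 0.039, adjusted p = 9.5e-19). Each of the 3 genes was lower in every shBRG1 sample than in any control. MCOLN1 fell by 0.87, from 36.5, 36.3 and 33.5 to 19.6, 19.4 and 18.5 CPM per kb, and CTSK by 0.64, the latter from 838, 817 and 855 to 564, 529 and 506 CPM per kb.

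NPC1 (ENSG00000141458) rose. It stood at 18.2, 17.8 and 17.8 CPM per kb with shSCR and at 43.9, 46.2 and 45.2 with shBRG1 (1.34 ± 0.039, adjusted p = 2.8e-21), the highest levels of that gene in the 19 samples. NPC2 fell by 0.84. CTSL rose as well, from 265, 280.3 and 269.5 to 459, 499 and 467 CPM per kb (0.82 ± 0.044, adjusted p = 2.4e-15). ATP6V0E2 (0.60) and ATP6V0D2 (0.36) were the other 2 that rose. LAMP1 (0.09), CTSB (0.02), GAA (0.06), GLB1 (0.03), PSAP (-0.08) and TPP1 (-0.09) were among those that did not pass the test.

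Beside these values, the melanocytic markers summed to between 16804 and 17123 CPM per kb with shSCR and to between 7983 and 8417 with shBRG1, and mitochondrial genes took 2.78% to 3.01% and 2.55% to 2.63% of the counts. Their part in the result was not tested. When all 3 Hermes 3A groups were fitted together, with 1 estimate of the spread, 17 of the 46 genes fell and 3 rose, where 11.1% and 10.4% of all genes did. With library sizes in place of TMM, 31 fell and 9 rose, where 21.4% and 37.1% of all genes did, and 0 fell past 2-fold.

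MITF silencing in Hermes 3A melanocytes lowered 19 of the 46 genes and raised 0 (adjusted p under 0.05), where 9.15% of the 16508 genes tested fell and 7.85% rose. At an unadjusted p under 0.05 in edgeR 2 genes were higher, SQSTM1 and ATP6V0E2, and 27 lower, and DESeq2 with its own size factors raised 0 and lowered 24. Past 2-fold, 5 fell and 0 rose, where 4.04% of all genes fell and 3.35% rose that far. The median log2 fold change was -0.43, against 0.05 over all genes tested. They were 11 of 18 hydrolases, 2 each of the membrane and lipid genes, of those of autophagy and nutrient sensing, of V0 and of V1. The 5 past 2-fold were ATP6V0D2, CTSK, FNIP2, MCOLN1 and ASAH1.

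CTSK (ENSG00000143387, chr1:150796208-150808323, minus strand) stood at 838, 817 and 855 CPM per kb with shSCR and at 276, 213 and 129 with shMITF (log2 fold change -1.99 ± 0.26, adjusted p = 0.00258). ATP6V0D2 stood at 1.68, 1.29 and 1.66 with shSCR and at 0.0945, 0.274 and 0.0976 with shMITF (-3.27 ± 0.43, adjusted p = 0.00253). In both genes, which are known from osteoclasts, where MITF and TFE3 act, the groups did not overlap. FNIP2 stood at 5.92, 10.8 and 9.97 with shMITF (-1.44 ± 0.22, adjusted p = 0.00444), MCOLN1 at 15, 15.8 and 13.7 (-1.23 ± 0.12, adjusted p = 7.2e-04) and ASAH1 at 53.6, 40.8 and 38 (-1.13 ± 0.17, adjusted p = 0.00461). All were below every control sample, whose values are given above.

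CLCN7 did not pass the test (adjusted p = 0.0851). CTSB stood at 280.2, 181 and 292 with shMITF (-0.27 ± 0.2, adjusted p = 0.405), and CTSF at 54.7, 37.3 and 71.2 (-0.26 ± 0.21, adjusted p = 0.446), the wide spread of that group being plain in both. CTSL fell by 0.85 (adjusted p = 0.0429), with samples at 209.8, 105 and 130.3. NPC1 (-0.35, adjusted p = 0.125) and ATP6V0E2 (0.31, adjusted p = 0.14) did not pass. Without any 1 of the 3 shSCR samples only 7 of the 46 genes fell, and of the 19 genes 7 fell in every fit that left out 1 sample, namely CTSK, ASAH1, MCOLN1, FNIP2, ATP6V0A1, ATP6V0D2 and ATP6V1C1. The melanocytic markers, MITF included, summed to between 6999.9 and 9104 CPM per kb with shMITF, and their part in the result was not tested. Of these, TYR (441 to 817) and SOX10 (113 to 344) overlapped with shSCR, at 667 to 702 and 168 to 190.3. The others were lower than in every shSCR sample.

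**Figure D4:**
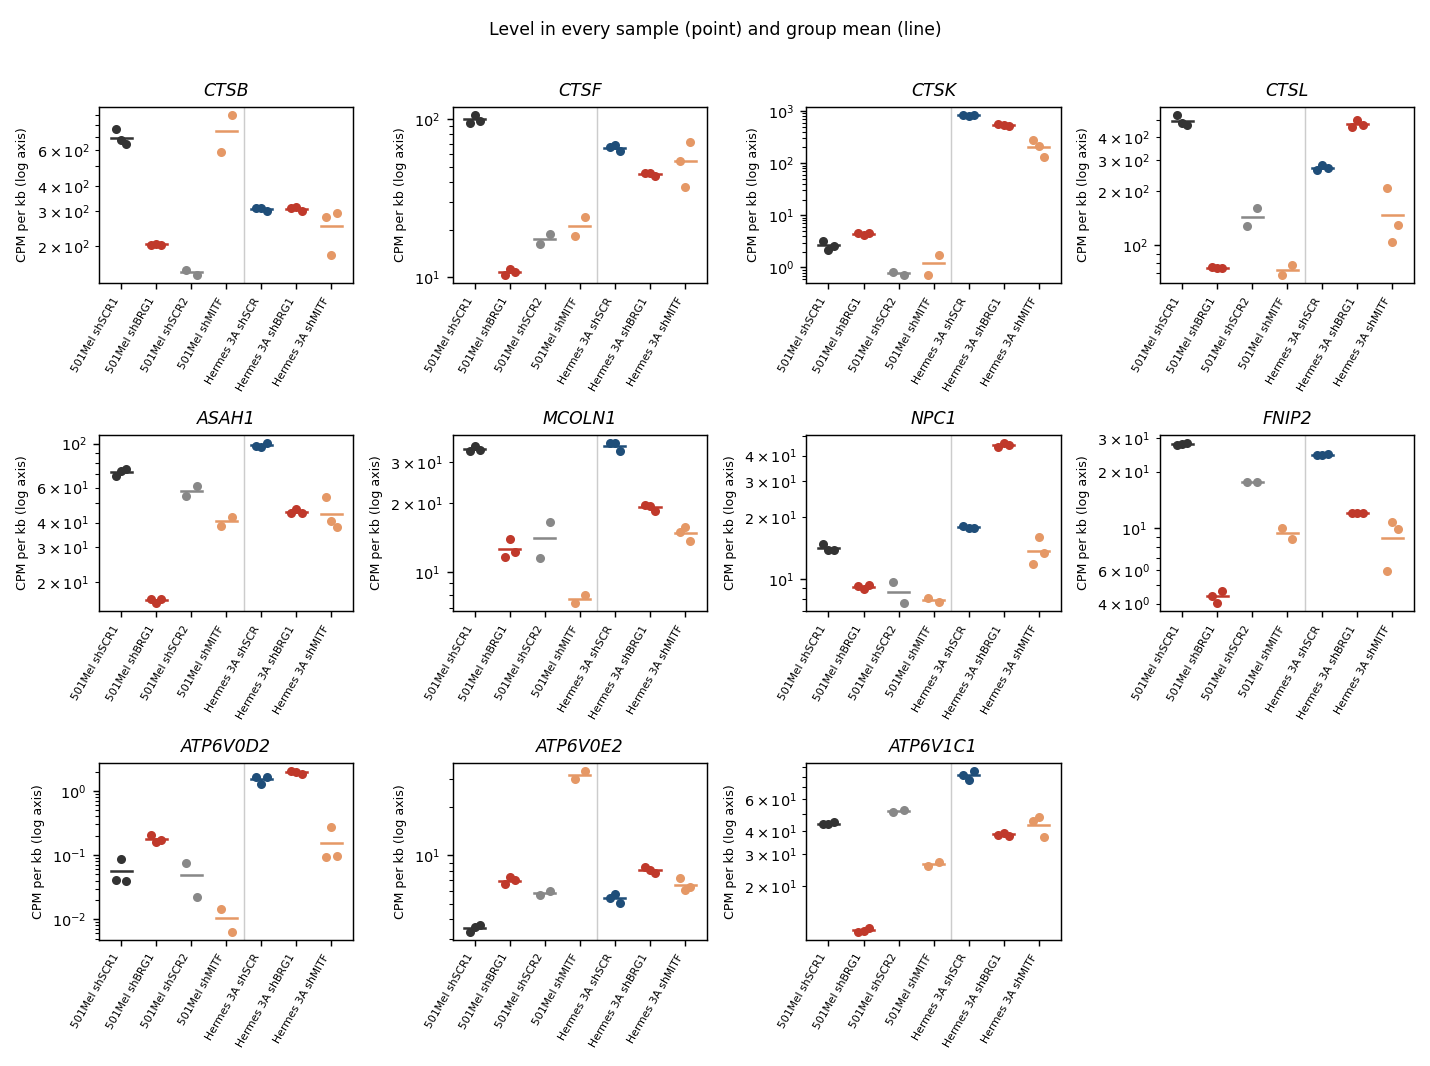
Level in every sample (points; CPM per kb on a log axis) and group mean (lines) of the 11 genes with the largest or most repeated changes, 501Mel to the left of the grey line and Hermes 3A to the right. FNIP2, ASAH1, MCOLN1 and ATP6V1C1 lie lower in every knockdown group than in its own control, whereas CTSL and NPC1 go down with shBRG1 against shSCR1 in 501Mel and up in Hermes 3A.

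The same shRNA could be compared between the lines by the difference of its effects. shBRG1 lowered 29 genes in both lines, of the 39 that fell against shSCR1 in 501Mel and the 33 that fell in Hermes 3A. With so many of the 46 genes lower in each line, a large overlap follows from the counts alone. The share of all genes lower in both lines was not counted. The effect was lower in 501Mel for 35 of the 46 genes and higher for 7 (adjusted p of the difference under 0.05), where this was so for 33.1% and 24.8% of the 21697 genes tested. Past a 2-fold difference, 17 were lower and 2 higher in 501Mel, where 14.9% of all genes were lower and 12.0% higher by that much. Against shSCR2 in place of shSCR1, 20 were lower and 9 higher, where 31.5% and 27.9% of all genes were. Of the 35 genes lower with shSCR1, 17 stayed lower and 5 passed as higher. Of the 7 higher, 4 stayed higher and 2 passed as lower. CTSL differed most (difference of log2 fold changes -3.64 ± 0.073, adjusted p = 8.5e-32), since it fell in 501Mel and rose in Hermes 3A. NPC1 likewise fell in one line and rose in the other (-2.07 ± 0.062, adjusted p = 1.7e-26). With shSCR2 as the control these differences were -1.82 for CTSL and -1.30 for NPC1 (adjusted p = 2.4e-12 and 1.4e-10). CTSK and FLCN went the other way, rising in 501Mel and falling in Hermes 3A, by a difference of 1.25 and 0.98 (3.13 and 1.38 with shSCR2).

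For 4 of the 46 genes the difference between the lines did not pass the test with shSCR1 as the 501Mel control. GLA, the alpha-galactosidase, fell by 0.89 in 501Mel and 0.86 in Hermes 3A (difference -0.06 ± 0.066, adjusted p = 0.489). CTSA, which stabilises beta-galactosidase and neuraminidase, fell by 0.43 and 0.42 (difference -0.04 ± 0.065, adjusted p = 0.612). The other 2 were the V1 subunits ATP6V1D (0.10 ± 0.063) and ATP6V1A (0.15 ± 0.068). With shSCR2 as the control ATP6V1D passed as lower in 501Mel (-0.30, adjusted p = 0.00198). GLA (0.04), CTSA (0.07) and ATP6V1A (-0.19) did not pass there either. SMARCA4 itself fell by 2.36 and 2.38, with a difference of -0.01 ± 0.07 (adjusted p = 0.964). MITF, by contrast, fell further in 501Mel, by a difference of -1.15 ± 0.079 (adjusted p = 2.6e-15).

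**Figure D5:**
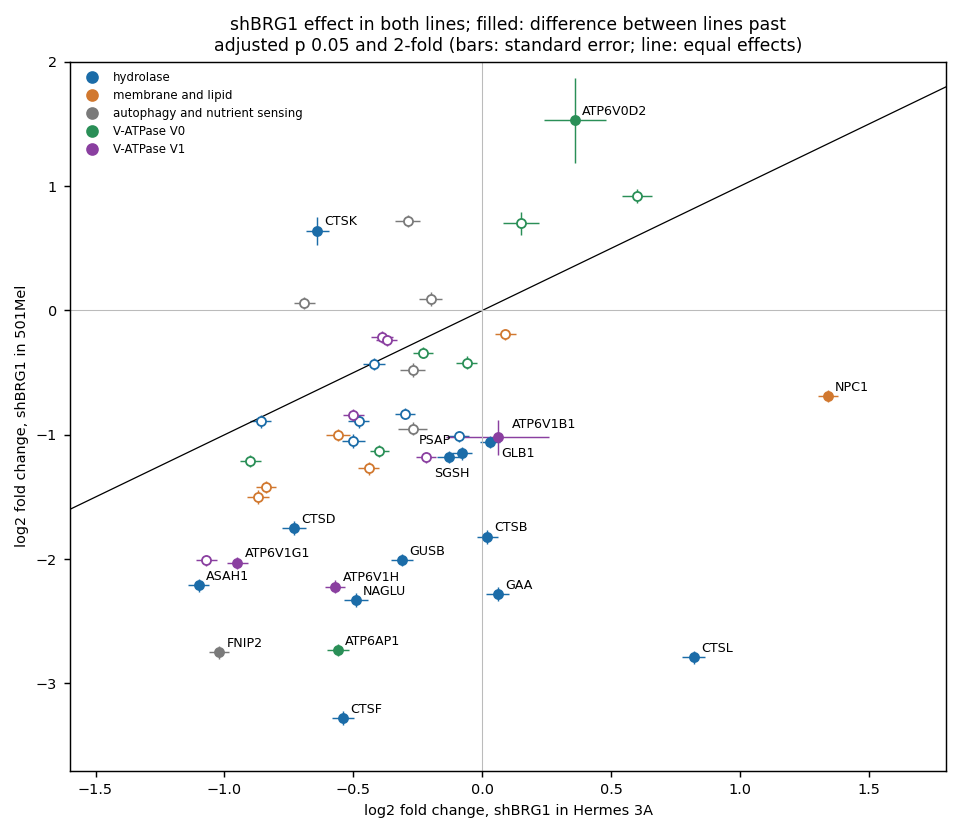
Effect of shBRG1 as log2 fold change in Hermes 3A (horizontal) against that in 501Mel (vertical), 1 point per gene with standard errors, filled and named where the difference passed adjusted p 0.05 and 2-fold. Most points lie below the line of equal effects, and CTSL (0.82 and -2.79) and NPC1 (1.34 and -0.69) have opposite signs.

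For shMITF, 8 genes fell in both lines, of 10 in 501Mel and 19 in Hermes 3A: CTSL, GLA, GUSB, ASAH1, MCOLN1, FNIP2, ATP6V1B2 and ATP6V1C1. Here too the share of all genes lower in both lines was not counted. The difference of effects passed the test for 5 of the 46 genes, all higher in 501Mel and past 2-fold, where 2.16% of the 19284 genes tested were higher and 0.830% lower, and 2.00% were higher and 0.643% lower past 2-fold. They were CTSK (2.72 ± 0.51, adjusted p = 0.0168), CTSB (2.62 ± 0.33, adjusted p = 0.00178), ATP6V0E2 (2.19 ± 0.19, adjusted p = 3.5e-04), CTSZ (1.57) and ATP6V0A1 (1.19). With shSCR1 in place of shSCR2, CTSZ (1.10) and ATP6V0E2 (2.89) still passed as higher in 501Mel, CTSB (0.39), CTSK (0.88) and ATP6V0A1 (0.29) did not pass, and 11 of the 46 genes were lower and 6 higher, where 12.9% and 13.8% of all genes were. CTSK is at 0.713 to 1.73 CPM per kb in the 501Mel samples of this comparison. For FNIP2 (0.57 ± 0.29, adjusted p = 0.337), MCOLN1 (0.39 ± 0.22, adjusted p = 0.4) and ATP6V1C1 (-0.06 ± 0.2, adjusted p = 0.923) no difference between lines was detectable against shSCR2 at this spread. With shSCR1 in its place MCOLN1 was lower in 501Mel (-0.91, adjusted p = 7.3e-04), and FNIP2 (-0.11) and ATP6V1C1 (0.15) did not pass.

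Set side by side with 501Mel first (shBRG1, then shMITF) and Hermes 3A after it (likewise, both against the same control samples), FNIP2 had log2 fold changes of -2.75, -0.87, -1.02 and -1.44. ASAH1 had -2.21, -0.47, -1.10 and -1.13, MCOLN1 -1.50, -0.83, -0.87 and -1.23, and ATP6V1C1 -2.01, -0.92, -1.07 and -0.87. GUSB had -2.01, -0.52, -0.31 and -0.66, GLA -0.89, -0.53, -0.86 and -0.88, and ATP6V1B2 -0.84, -0.52, -0.50 and -0.75. These 7 of the 46 genes were picked as those lower in all 4 knockdown comparisons. That each of their values passed the test follows from this choice. The share of all genes lower in all 4 was not counted. The call of MCOLN1 in 501Mel shBRG1 was lost against shSCR2. In 501Mel shMITF only those of FNIP2 and ATP6V1C1 among these genes held in every fit that left out 1 sample. In Hermes 3A shMITF those of GUSB, GLA and ATP6V1B2 did not.

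The transcription factors of the family moved apart from one another. TFEB, the factor best known for lysosomal genes, stood at 6.21, 6.56 and 5.98 CPM per kb in 501Mel shSCR1 and at 0.849, 0.935 and 0.773 with shBRG1 (log2 fold change -2.94 ± 0.075, adjusted p = 2.1e-20). It stood at 5.55 and 5.05 with shSCR2 and at 0.934 and 0.819 with shMITF (-2.56 ± 0.19, adjusted p = 1.9e-04). Both knockdowns thus lowered it in 501Mel, with no overlap between a knockdown and its control. In Hermes 3A it was low throughout, between 0.221 and 0.764, and passed the test with neither knockdown. TFE3 rose in 501Mel, by 1.65 with shBRG1 and 0.69 with shMITF (adjusted p = 5.5e-19 and 0.00809), and by 0.26 with shBRG1 in Hermes 3A (adjusted p = 1.5e-05). With shMITF in Hermes 3A it stood at 17.7, 17.4 and 18.9 CPM per kb against 14, 14.5 and 14, which do not overlap (0.37 ± 0.11, adjusted p = 0.0503). TFEC was at most 0.0301 CPM per kb in any sample and was not tested. SOX10, an activator of MITF in this lineage, fell by 2.44 with shBRG1 in 501Mel, by 0.52 with shMITF in 501Mel (adjusted p = 0.0451) and by 0.40 with shBRG1 in Hermes 3A. In 501Mel it stood at 151 and 171 CPM per kb with shSCR2, at 127 and 91.6 with shMITF and at 125 to 134 with shSCR1. With shMITF in Hermes 3A it stood at 113, 344 and 186 (0.28 ± 0.35, adjusted p = 0.618).

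The other genes of the same machinery were counted from lists grouped by function. Of 37 other lysosomal genes 36 were tested, and in 501Mel shBRG1 31 fell and 3 rose against shSCR1, with a median of -0.93. Against shSCR2, 22 were lower and 8 higher (median -0.38). In 501Mel shMITF 5 fell and 11 rose (median 0.18), in Hermes 3A shBRG1 21 fell and 8 rose (median -0.20), and in Hermes 3A shMITF 7 fell and 2 rose (median -0.32). Of all genes tested, 39.1% fell and 41.2% rose in 501Mel shBRG1 against shSCR1, and 37.1% and 42.7% against shSCR2. The shares were 10.5% and 10.0% in 501Mel shMITF, 28.6% and 28.2% in Hermes 3A shBRG1, and 9.15% and 7.85% in Hermes 3A shMITF. SLC17A5, the sialic acid exporter, rose in all 4 comparisons, by 1.29, 0.99, 1.12 and 0.68 in the order used above. OSTM1, the partner of CLCN7, fell by 2.39, and CD63, a tetraspanin of lysosomes and melanosomes, by 2.26 in 501Mel shBRG1.

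In 501Mel shMITF the hydrolases IDUA (1.75) and FUCA1 (1.55) rose most, both of which were lower with shSCR2 than with shSCR1, by -2.52 and -1.87. In Hermes 3A shBRG1 the cathepsin CTSS fell by 2.23, while SCARB2, the receptor that carries beta-glucocerebrosidase, rose by 0.99. In Hermes 3A shMITF, SMPD1, the acid sphingomyelinase, rose by 0.83 and IGF2R, the receptor that sorts hydrolases to lysosomes, fell by 1.15.

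Of 9 V-ATPase subunits outside the 46 genes 8 were tested. In 501Mel shBRG1 7 fell and none rose against shSCR1, led by the a4 isoform ATP6V0A4 (-2.90) and the a3 isoform TCIRG1 (-1.52). Against shSCR2, 6 were lower and 2 higher, where 37.1% and 42.7% of all genes were, with ATP6V0A4 at -3.68 and TCIRG1 at -0.45. In Hermes 3A shBRG1 2 fell and ATP6V1G2 rose (1.35), where 28.6% of all genes fell and 28.2% rose. With shMITF 2 fell in 501Mel and 1 in Hermes 3A, ATP6V0A4 being among them in both lines (-0.91 and -0.99). Of all genes 10.5% and 9.15% fell in these comparisons. The 11 Rag and Ragulator genes, which tether mTORC1 to the lysosome, had 6 lower and 4 higher in 501Mel shBRG1 against shSCR1 (median -0.27). The 12 other autophagy genes had 5 lower and 5 higher (median -0.02), where 39.1% of all genes were lower and 41.2% higher. Against shSCR2 these lists had 5 lower and 2 higher, and 7 lower and 3 higher (medians -0.05 and -0.26). In Hermes 3A shBRG1 they had 2 lower and 4 higher, and 8 lower and 2 higher. With shMITF in 501Mel they had 1 lower and 1 higher, and 0 lower and 2 higher. With shMITF in Hermes 3A they had 1 lower and 0 higher, and 3 lower and 2 higher.

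Some of the 46 genes are measured less surely than others. Pseudogenes are named after 7 of them, with 11 for GUSB and 5 each for CTSL and ATP6V1G1, and reads could be split between near-identical copies. On the same strand, over 20% of exon bases are shared with another annotated gene for CTSD (41.7%), ATP6V1B1 (62.4%) and ATP6V0C, and on the opposite strand for CTSA (28.5%) and SQSTM1 (22%), where reads counted without strand could not be assigned.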

How the data were processed

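Total RNA was depleted of ribosomal RNA, and the authors treated the cDNA libraries with a duplex-specific nuclease, which lowers the most abundant cDNAs and can compress differences at high levels. What the authors deposited are raw counts of reads on Ensembl genes, 1 set per replicate, neither normalized nor pooled. The submitters' processing notes name CASAVA 1.8, TopHat 1.4.1, Bowtie 0.12.7 and hg19. The counting program, its annotation and its use of strand are not given in the sources used here. Gene positions and exon lengths were looked up by Ensembl identifier in GENCODE 29 (GRCh38).

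For each comparison the samples of its groups alone entered a fit in edgeR 4.0.16 (R 4.3.3), with TMM, filterByExpr, a robust quasi-likelihood fit and glmQLFTest, and Benjamini-Hochberg adjustment over all genes tested. The calls were adjusted p under 0.05, and this with an absolute log2 fold change over 1 (past 2-fold). Standard errors were taken as |log2 fold change| over the square root of F. Differences between lines were contrasts in 1 fit of the 4 groups concerned. The code was tested on simulated data.

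Counts of 29158502 to 78857900 per sample set the precision. Samples were grouped by their labels. Values in every sample are given for SMARCA4, MITF and the members past 2-fold in at least 2 of 4 knockdown comparisons or among the 2 largest changes in either direction in 1 of them. TFEB is shown in full as well, chosen after its values were seen. The other lysosomal genes named had the 2 largest changes in either direction, and some results that this rule would name are not reported here. The 46 genes and all lists were chosen with earlier results of these data known. Alternatives were DESeq2 1.42.0, library sizes or the upper quartile in place of TMM, no filter, a minimum of 10 counts per sample, a block for the replicate number, each replicate left out, all groups of a line in 1 fit, and other scramble controls. Tables and figures were drawn up in Python 3.11.15 with pandas 2.3.3 and matplotlib 3.10.9.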

Additional observations from a re-analysis of the deposited data

Results flagged for a closer look

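Several genes differed between 501Mel and Hermes 3A in their response to the same shRNA, by a test of the difference itself (adjusted p under 0.05) and by more than 2-fold. Values are the log2 fold change in 501Mel minus that in Hermes 3A. For shBRG1 the cathepsins and proteases differed by -3.64 (CTSL), -2.77 (CTSF), -1.87 (CTSB) and -1.06 (CTSD), with CTSK at 1.25. The glycan-degrading hydrolases differed by -2.37 (GAA), -1.87 (NAGLU), -1.73 (GUSB), -1.11 (GLB1) and -1.08 (SGSH). Of the genes of sphingolipid and cholesterol handling, NPC1 differed by -2.07, ASAH1 by -1.14 and PSAP by -1.10, and FNIP2 of the folliculin complex by -1.76. Of the V-ATPase subunits, ATP6AP1 differed by -2.20, ATP6V1H by -1.68, ATP6V1B1 and ATP6V1G1 by -1.11 each and ATP6V0D2 by 1.14. These values take shSCR1 as the 501Mel control. With shSCR2 in its place CTSL, NAGLU, NPC1, FNIP2, ATP6V1H, CTSK and ATP6V0D2 passed 2-fold in the same direction, and CTSF (-0.22), GLB1 (-0.25), GUSB (-0.80), ASAH1 (-0.78), PSAP (-0.19), ATP6AP1 (-0.39) and ATP6V1G1 (-0.76) passed the test by less. CTSB was then higher in 501Mel (0.40, adjusted p = 1.1e-04), and CTSD (0.31), GAA (0.14), SGSH (-0.04) and ATP6V1B1 (0.68) did not pass.

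For shMITF the differences were 2.72 for CTSK, 2.62 for CTSB, 2.19 for ATP6V0E2, 1.57 for CTSZ and 1.19 for ATP6V0A1. These take shSCR2 as the 501Mel control, in which CTSB, CTSK and ATP6V0A1 had log2 differences of -2.21, -1.81 and -0.87 from shSCR1. With shSCR1 in its place CTSZ (1.10) and ATP6V0E2 (2.89) passed 2-fold, and CTSB (0.39), CTSK (0.88) and ATP6V0A1 (0.29) did not pass the test.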

How the results depend on the processing

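The count of genes that fell with shBRG1 in 501Mel (39) stayed within 1.5 times under every alternative, the 30 against shSCR2 being the second lowest after the 28 with pooled scramble groups. With library sizes the count that rose was 10 in place of 5, and with both 501Mel scramble groups pooled it was 3, with 17 in place of 27 past 2-fold. For shMITF in 501Mel the counts higher, lower and past 2-fold were 4, 10 and 2. They were 7 higher and 17 lower with all 501Mel groups in 1 fit, 1 higher and 2 lower with the scramble groups pooled, and 7, 34 and 17 with shSCR1 as the control, which was chosen after the data were seen. In Hermes 3A shBRG1, library sizes gave 9 in place of 4 higher and 1 in place of 4 past 2-fold, and 1 fit of all Hermes 3A groups gave 17 in place of 33 lower. In Hermes 3A shMITF that fit gave 1 in place of 0 higher. Against shSCR2, chosen after the data were seen, 12 in place of 27 genes passed 2-fold in 501Mel shBRG1 and 10 in place of 19 in the difference of shBRG1 effects, and against shSCR1 10 in place of 5 in that of shMITF effects. With shSCR2 in place of shSCR1, 28 in place of 13 genes differed past 2-fold between the lines. With at least 10 counts in every sample, 12 in place of 19 genes passed as differing past 2-fold in the shBRG1 effect. The cause of these shifts was not tested.

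With 1 sample left out, a lone sample being assumed to vary like the others, the counts for 501Mel shBRG1 ranged over 5 to 6 higher, 39 lower throughout and 25 to 27 past 2-fold. For 501Mel shMITF they ranged over 3 to 6 higher, 4 to 12 lower and 2 to 4 past 2-fold. For Hermes 3A shBRG1 they ranged over 4 to 5 higher, 32 to 33 lower and 4 past 2-fold throughout, and for Hermes 3A shMITF over 0 to 1 higher, 7 to 25 lower and 5 to 8 past 2-fold. The differences past 2-fold ranged over 8 to 12 between the scramble groups, 17 to 21 for the shBRG1 effect and 3 to 6 for the shMITF effect, the 3 coming without 501Mel shSCR2 replicate 1 or without 501Mel shMITF replicate 2.

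Directions turned as follows. In 501Mel shBRG1, library sizes gave LAMP1 0.16, ATP6V0E1 0.01, ATP6V1A 0.14 and ATP6V1D 0.10, and the upper quartile gave LAMP1 0.09, ATP6V1A 0.07 and ATP6V1D 0.04. Against shSCR2, CTSB was 0.38, GAA 0.16, NEU1 0.15, NPC1 0.01 and ATP6V1B1 0.71 in 501Mel shBRG1. Of genes past 2-fold, the difference of shBRG1 effects turned to 0.40 for CTSB, 0.31 for CTSD, 0.14 for GAA and 0.68 for ATP6V1B1. Of genes lower by less, NEU1 (0.67), MCOLN1 (0.66), NPC2 (0.22) and ATP6V0B (0.80) then passed as higher in 501Mel. RRAGD (-0.52) and ATP6V0E2 (-0.39), higher with shSCR1, passed as lower. In 501Mel shMITF, pooled scramble groups gave CTSF -1.63, CTSK -0.62 and GAA -1.27, and shSCR1 gave CTSF -2.22, CTSK -1.11 and GAA -1.85. With 1 sample left out CTSK ranged from -0.10 (without 501Mel shMITF replicate 2) to 1.23, and NPC1 from -0.28 to 0.08 (without 501Mel shSCR2 replicate 1), and NPC1 was 0.00 with library sizes. In Hermes 3A shBRG1, CTSB ranged from -0.00 (without shSCR replicate 3 or shBRG1 replicate 2) to 0.03.

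Whether replicate numbers pair the samples could not be decided. Correlations between the deviations of samples with the same number were 0.095 or less. In groups of 2 samples, as in 501Mel shMITF, the deviations mirror each other. With the replicate number as a block the counts of genes lower were 39, 10, 33 and 19 in the 4 knockdown comparisons, the same as without it, and those higher were 5, 3, 5 and 0.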
